A study of Mus musculus with 6 samples.

Results

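The 10 genes described here, *Mad1l1*, *Mad2l1*, *Mad2l2*, *Bub1*, *Bub1b*, *Bub3*, *Ttk*, *Espl1*, *Pttg1* and *Cdc20*, encode the spindle assembly checkpoint, the separase it restrains, and a related MAD2-like protein. They were chosen by symbol, with earlier results of these data known. They are 10 of the 53458 genes that the transcripts of the annotation make up. All 10 passed the filter on low counts, which left 22170 genes for the test. The samples were acute myeloid leukemia blasts from the bone marrow of mice labelled C57BL/6 (per the methods, C57BL/6J donor marrow grown in C57BL/6J.SJL recipients), sorted as live CD45.2+ donor cells without the lymphoid markers CD3 and B220 or the erythroid marker Ter119. *Cebpa*-/p30 *Tet2*+/+ blasts came from 3 mice (19, 23 and 24) and *Cebpa*-/p30 *Tet2*-/- blasts from 3 mice (5, 7 and 8), with 1 RNA-seq library per mouse. Both genotypes carried the *Cebpa*-/p30 lesion, that is, 1 deleted *Cebpa* allele and 1 allele that makes only the short p30 isoform of this myeloid transcription factor, so no sample had an intact *Cebpa*. Deletion was by Mx1-Cre, which is driven by an interferon-responsive promoter and is not restricted to 1 cell type. It was made in marrow that had been transplanted into lethally irradiated recipients. The recipients were female, and Poly(I)-Poly(C) injections induced the deletion, as the methods state. The ages of the mice at sampling were not given in the sources used here. Per the methods, recipients received marrow of individual donors, and marrow of moribund primary recipients was frozen for sorting. The labels do not tie a library to a donor.

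The spindle assembly checkpoint holds a cell in mitosis until every chromosome is attached to the spindle. At unattached kinetochores the kinase TTK (also called MPS1) recruits BUB1 and BUB3, MAD1 holds MAD2 there, and the resulting complex of MAD2, BUBR1 (from *Bub1b*), BUB3 and CDC20 blocks the anaphase-promoting complex. Once the checkpoint is satisfied, CDC20 activates that complex, securin (from *Pttg1*) is destroyed, and separase (from *Espl1*) cuts the cohesin ring that holds sister chromatids together. MAD2L2, also known as REV7, shares the fold of MAD2 but is best known as a subunit of a translesion DNA polymerase and of the shieldin complex. In bone marrow the mitotic genes are expressed in dividing progenitors and fall away as myeloid cells mature.

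The libraries held 13036643 to 32855343 estimated reads, and that of mouse 5 was 1.94 times as deep as the median of the others. Values are given as CPM, the summed reads of a gene scaled to a common library size after trimmed-mean (TMM) normalization, with factors of 0.867 to 1.11. *Tet2* itself was not lower over the whole gene in the mice labelled *Tet2*-/- (73.6, 79.5 and 98.4 CPM in mice 19, 23 and 24 against 111, 79.4 and 96.7 CPM in mice 5, 7 and 8, log2 fold change 0.19 ± 0.19 SE, adjusted p = 0.842 by the quasi-likelihood test of edgeR, adjusted after Benjamini and Hochberg), and a sum over the gene need not fall when a part of it is deleted. The 8 myeloid blast markers, *Mpo*, *Elane* and *Kit* among them, were present in every library, with a summed level of 7229 to 9565 CPM in *Tet2*-/- and 7783 to 9352 CPM in *Tet2*+/+ blasts. Mature neutrophil markers varied far more: the sum of 8 such genes was 54330, 10248 and 38683 CPM in mice 19, 23 and 24 and 60720, 109430 and 23203 CPM in mice 5, 7 and 8, and each of the 8 had a higher fitted level in *Tet2*-/-. Monocyte markers were also higher in *Tet2*-/- for 5 of 5 genes (2410 to 4530 against 1552 to 2748 CPM summed), while 4 of 4 plasma cell markers were lower and their sums did not overlap (29.1 to 50.1 against 135 to 184 CPM). Sums of B cell markers reached 81.7 CPM, of T and NK cell markers 28.7 CPM and of megakaryocyte markers 45.5 CPM. Erythroid markers stood apart in mouse 19: the sum of 6 such genes was 55.0 CPM there and 2.73 to 6.23 CPM in the other mice, 6 of 6 had a lower fitted level in *Tet2*-/-, and *Hba-a1*, *Klf1*, *Alas2* and *Slc4a1* were each at 0 in at least 1 library. The part of these cells in the results that follow was not tested, and in bulk RNA fewer cells of a type cannot be told apart from less RNA per cell.

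Of the 10 genes, 8 had a higher fitted level in *Tet2*-/- than in *Tet2*+/+ blasts and *Mad2l2* and *Pttg1* a lower one. The median log2 fold change of the 10 genes was 0.33, beside 0.00 over all genes tested, of which 50.1% were higher. Scaled by library size alone, which moved the median of all genes by -0.17, it was 0.16, with *Mad1l1* at 0.15, *Mad2l1* at 0.14, *Bub1* at 0.17 and *Ttk* at 0.33, and 8 genes were higher. The largest differences were those of *Espl1* (1.71-fold), *Bub3* (1.52-fold), *Cdc20* (1.501-fold) and *Ttk* (1.42-fold). No member passed an adjusted p of 0.05 in edgeR's quasi-likelihood test over all genes, in which 10 genes passed as lower (0.0451% of those tested) and none as higher (0%). At an unadjusted p under 0.05, 2 members were higher, *Espl1* and *Bub3*, and 0 were lower, where 3.0% of all genes were higher and 5.12% lower. In *Mad1l1*, *Bub3*, *Ttk* and *Espl1* every *Tet2*-/- mouse was above every *Tet2*+/+ mouse, which 6.41% of all genes showed in that direction and 9.81% of those averaging 5 CPM or more. The exact two-sided permutation test of 3 mice against 3 has a smallest p of 0.1, and these 4 genes are at it. Scaled by library size alone, 3 members were higher without overlap, where 2.69% of all genes were. With mouse 5, 7, 8, 23 or 24 left out, 4 to 6 members were higher and 0 lower without overlap, where 8.99 to 15.5% of all genes were higher and 11 to 14% lower. Without mouse 19 the number was 8, 6 of them higher and *Mad2l2* and *Pttg1* lower, where 12.7% of all genes were higher and 15.2% lower without overlap. That mouse lay nearest to *Tet2*-/- in several of these same genes, so leaving it out widens their separation by construction.

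**Figure D1:**
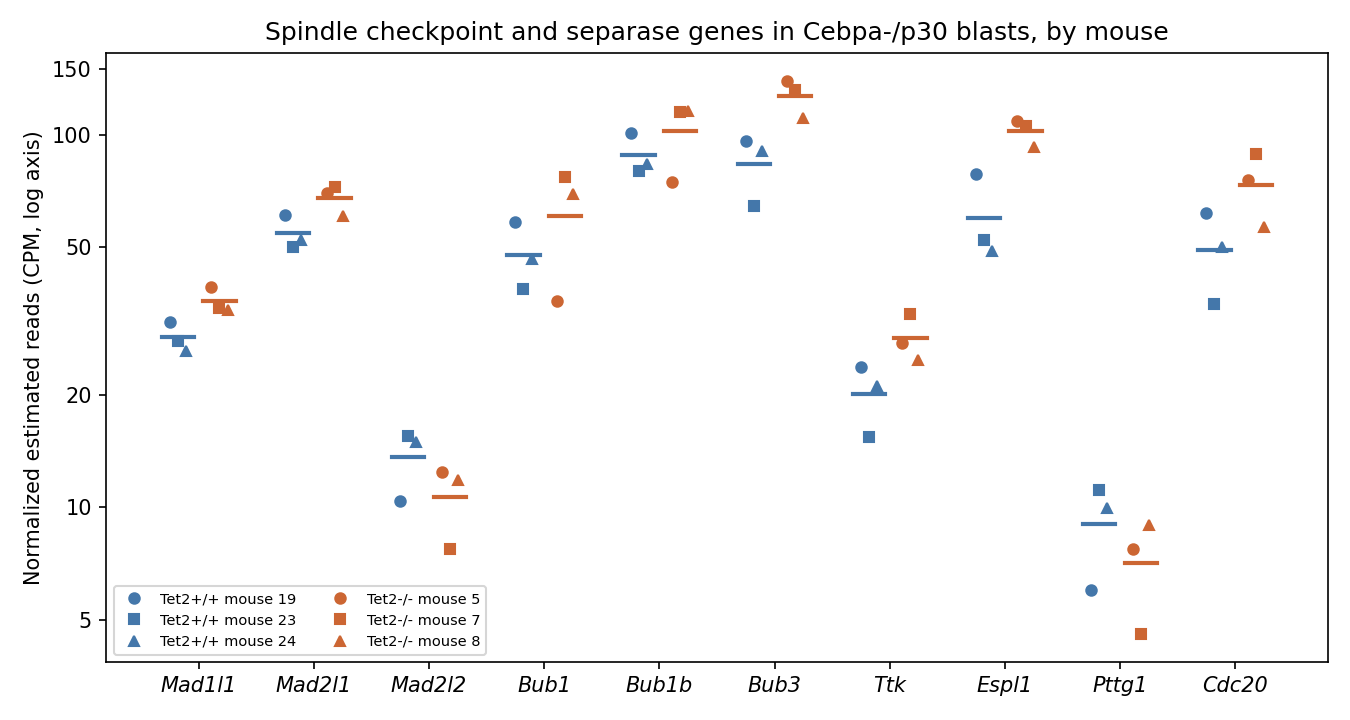
CPM (log axis) of each gene in each mouse, *Tet2*+/+ in blue and *Tet2*-/- in orange, with a bar at the mean of 3 mice. The genotypes are apart in *Mad1l1*, *Bub3*, *Ttk* and *Espl1* and overlap in the other 6 genes, and *Mad2l2* and *Pttg1* lie the other way round.

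Levels can be compared between genes only per length, so TPM was summed over transcripts of at least 300 bases, which leaves out *Mad1l1*-204, *Mad2l1*-204 and *Espl1*-206. On this scale and over 6 mice, *Bub3* stood first at 44.9 ± 10.6 TPM (SD, n = 6), followed by *Bub1b* at 33.1 ± 6.35, *Cdc20* at 29.5 ± 8.60 and *Mad2l1* at 22.7 ± 2.53 TPM. *Mad2l2* (16.5 ± 5.86 TPM), *Bub1* (14.9 ± 4.22), *Espl1* (13.3 ± 5.14) and *Pttg1* (11.1 ± 3.97) were in the middle. *Mad1l1* (6.79 ± 1.20 TPM) and the kinase *Ttk* (5.35 ± 1.33 TPM) were lowest. The ranges over mice of each pair of neighbours in this order overlapped. The order also holds only for this sum, since transcripts a little over 300 bases still carried much of it: *Bub1b*-203, of 385 bases, made 40.2 to 48.2% of the TPM of its gene from 3.58 to 4.63% of the reads, and *Mad2l2*-207, of 391 bases, made 43.1 to 55.8%. By the coding transcript with the most reads alone, *Mad2l1*-201 (15.9 ± 2.75 TPM, SD, n = 6), *Cdc20*-201 (15.2 ± 3.93) and *Bub1b*-201 (12.5 ± 2.25) came first and *Espl1*-201 (3.54 ± 1.31) and *Mad2l2*-203 (3.53 ± 0.76) last. *Bub3*-201 stood at 5.57 ± 5.45 TPM on that scale, below *Bub1*-201 at 9.26 ± 2.71 TPM, with overlapping spreads.

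*Espl1* encodes separase, the protease that opens cohesin at anaphase. Its level was 78.4, 52.3 and 48.9 CPM in mice 19, 23 and 24 and 109, 106 and 92.9 CPM in mice 5, 7 and 8. All *Tet2*-/- mice were above all *Tet2*+/+ mice, with mouse 19 the nearest of the latter. The log2 fold change was 0.78 ± 0.22 SE (95% interval 0.27 to 1.29, edgeR's quasi-likelihood test, Benjamini-Hochberg adjusted p = 0.463), and it ran from 0.65 to 1.02 when each mouse was left out in turn. The retained-intron transcript *Espl1*-206, of 296 bases, made 65.2 to 73.9% of the TPM of the gene from 28.3 to 119 reads, at 22.4, 20.9 and 20.9 TPM in *Tet2*+/+ and 34.9, 42.4 and 30.2 TPM in *Tet2*-/- mice (limma adjusted p = 0.567). Both long coding transcripts carried reads in every mouse, and *Espl1*-201 took 44.2 to 68.5% of the reads of the gene. The TPM of *Espl1*-201 was 3.97, 1.999 and 1.79 in *Tet2*+/+ and 4.46, 4.85 and 4.18 in *Tet2*-/- mice, again without overlap (limma adjusted p = 0.796 on log2(TPM + 1) over all transcripts tested).

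*Pttg1* encodes securin, the inhibitor and chaperone of separase. It was at 5.98, 11.1 and 9.93 CPM in mice 19, 23 and 24 and at 7.72, 4.57 and 8.95 CPM in mice 5, 7 and 8. The genotypes overlapped, with the lowest level in mouse 7 and the highest in mouse 23. The log2 fold change was -0.35 ± 0.37 SE (95% interval -1.22 to 0.53, edgeR's quasi-likelihood test, Benjamini-Hochberg adjusted p = 0.850), the widest interval of the 10 genes, and these values rest on 71 to 244 reads per library. It was -0.12 without mouse 7, -0.58 without mouse 19 and -0.05 on counts made from TPM. Among its transcripts, the coding *Pttg1*-201, picked out after its values were seen, had 26.5, 25.0 and 42.8 estimated reads in the *Tet2*+/+ mice and 0 in each *Tet2*-/- mouse. Its mean TPM in *Tet2*+/+ (2.58 ± 1.26 SD, n = 3) was 14.1-fold the mean TPM that 3 reads, a floor chosen here, would give in the *Tet2*-/- libraries. It did not pass limma's test over all transcripts (log2 fold change -1.79 ± 0.28 SE on log2(TPM + 1), adjusted p = 0.203). The reads assigned to the other *Pttg1* transcripts were uneven between mice: *Pttg1*-203 had 113 reads in mouse 23 and 0 in every other mouse, and *Pttg1*-205 had 0 in mouse 23 and 41.3 to 168 in the others.

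*Cdc20*, the activator of the anaphase-promoting complex and the protein that the checkpoint holds back, was at 61.8, 35.2 and 49.9 CPM in mice 19, 23 and 24. In mice 5, 7 and 8 it was at 75.4, 88.5 and 56.4 CPM. Mouse 8 fell between *Tet2*+/+ mice 24 and 19, so the genotypes overlapped. The log2 fold change was 0.59 ± 0.26 SE (95% interval -0.03 to 1.20, edgeR's quasi-likelihood test, Benjamini-Hochberg adjusted p = 0.632), and it was 0.38 without mouse 23. The library kit does not mark strand, and 53 of the 1868 exonic bases of *Cdc20* are shared with *Elovl1* on the opposite strand, which had a mean of 78.8 CPM, so reads over those bases cannot be assigned to either gene by strand. Of the 10 genes, it was also the one with transcripts (*Cdc20*-202 and *Cdc20*-203) that match another gene over at least 50% of their length at 95% identity or more, the pseudogene *Gm7856*, which was at 0 CPM.

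*Ttk*, the kinase at the head of the checkpoint, was at 23.8, 15.4 and 21.1 CPM in *Tet2*+/+ mice 19, 23 and 24. It was at 27.6, 33.0 and 24.9 CPM in *Tet2*-/- mice 5, 7 and 8. The lowest *Tet2*-/- mouse was just above the highest *Tet2*+/+ mouse. Its log2 fold change was 0.50 ± 0.23 SE (95% interval -0.04 to 1.04, edgeR's quasi-likelihood test, Benjamini-Hochberg adjusted p = 0.638), it was 0.33 without mouse 23, and 77.1 to 97.3% of its reads lay on the coding transcript *Ttk*-201.

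*Bub3*, a kinetochore adaptor that brings BUB1 and BUBR1 to the kinetochore scaffold, was at 96.3, 64.5 and 90.1 CPM in mice 19, 23 and 24 and at 139.6, 132 and 111 CPM in mice 5, 7 and 8. No *Tet2*-/- mouse overlapped the *Tet2*+/+ mice. The log2 fold change was 0.61 ± 0.20 SE (95% interval 0.13 to 1.08, edgeR's quasi-likelihood test, Benjamini-Hochberg adjusted p = 0.549), with 0.43 to 0.72 when each mouse was left out. Its transcripts were not split in a stable way: the coding *Bub3*-201 had 0 reads in mouse 23 and mouse 7 and 179 to 987 in the others, while *Bub3*-204, annotated as a target of nonsense-mediated decay, took 29.6 to 68.7% of the reads. The sum over the gene is therefore the quantity described here.

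*Bub1* and *Bub1b* encode the kinase BUB1 and its pseudokinase relative BUBR1, and they shared a pattern that the other genes did not have. *Bub1* was at 58.2, 38.5 and 46.3 CPM in mice 19, 23 and 24 and at 35.8, 76.9 and 69.1 CPM in mice 5, 7 and 8. *Bub1b* was at 101, 79.8 and 83.2 CPM in the former and at 74.5, 115 and 116 CPM in the latter. In both genes mouse 5, the deepest library, was the lowest of all 6, whereas mice 7 and 8 were the highest. The log2 fold changes were 0.35 ± 0.31 SE for *Bub1* (95% interval -0.38 to 1.07, edgeR's quasi-likelihood test, Benjamini-Hochberg adjusted p = 0.819) and 0.21 ± 0.22 SE for *Bub1b* (95% interval -0.30 to 0.73, adjusted p = 0.847 in the same test). With 1 mouse left out, *Bub1* ran from 0.14 (without mouse 7) to 0.61 (without mouse 5), with 0.20 without mouse 23. *Bub1b* ran from 0.11 (without mouse 8, and 0.11 without mouse 7) to 0.39 (without mouse 5). Each gene rested on 1 coding transcript, *Bub1*-201 with 92.0 to 95.9% and *Bub1b*-201 with 90.6 to 94.3% of the reads.

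*Mad1l1* encodes MAD1, the kinetochore protein that holds MAD2 and converts it to its active form. Its level over the whole gene was 31.4, 27.9 and 26.3 CPM in mice 19, 23 and 24 and 38.9, 34.3 and 33.8 CPM in mice 5, 7 and 8. The genotypes did not overlap but lay close together, and the log2 fold change was 0.32 ± 0.17 SE (95% interval -0.07 to 0.71, edgeR's quasi-likelihood test, Benjamini-Hochberg adjusted p = 0.668). The coding transcript *Mad1l1*-201 took 94.5 to 100% of the reads. Its TPM was 5.35, 5.39 and 5.14 in the *Tet2*+/+ mice and 6.05, 5.68 and 5.77 in the *Tet2*-/- mice (log2 fold change 0.12 on log2(TPM + 1), limma adjusted p = 0.906). The noncoding *Mad1l1*-203 was at 1.58, 1.51 and 0 TPM against 1.56, 0 and 2.52 TPM, with no order between genotypes (log2 fold change 0.16, limma adjusted p = 0.973).

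Another transcript of *Mad1l1* had estimated reads in 1 genotype only. *Mad1l1*-204 is a processed transcript of 276 bases from 2 exons on the minus strand of chromosome 5 (GRCm38), which lies inside the gene. It had 0 TPM in each *Tet2*+/+ mouse and 8.59, 11.2 and 7.77 TPM in *Tet2*-/- mice 5, 7 and 8. These TPM values came from 23.04, 14.1 and 11.3 estimated reads, 1.81 to 2.64% of the reads of the gene, yet they made up 48.4 to 66.3% of its TPM. A TPM divides reads by the effective length, the number of positions at which a fragment can start, and that was 39.8 bases for *Mad1l1*-204 against 2934 bases for *Mad1l1*-201, so 1 read on the short transcript weighs far more than 1 read on the long one. In each *Tet2*+/+ library 3 reads would have given 2.18 to 3.64 TPM. The mean in *Tet2*-/- was 3.41-fold the mean of that floor, and the lowest *Tet2*-/- mouse was 2.135-fold its highest value. Whether the reads assigned to *Mad1l1*-204 cross its exon junction was not tested.

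*Mad1l1*-204 passed limma's test over the 61991 transcripts with a mean of at least 0.1 TPM (log2 fold change 3.33 ± 0.22 SE on log2(TPM + 1), adjusted p = 0.0238), as 1 of the 6 transcripts (0.00968% of those tested) that did so in the higher direction. It did not pass edgeR's quasi-likelihood test on the reads of transcripts (Benjamini-Hochberg adjusted p = 0.572), and with any 1 mouse left out it did not pass limma's test (log2 fold change 3.20 to 3.44, adjusted p 0.0679 to 0.0950). It did pass limma's test on TPM divided by the TMM factor (adjusted p = 0.0341), without a filter on low TPM (adjusted p = 0.0472) and on log2(TPM + 0.1) (log2 fold change 6.52, adjusted p = 0.0127). Of its sequence, 141 bases in the second exon (chr5:140143912-140144060) are also in a coding exon of *Mad1l1*-201, whereas the first exon (chr5:140174533-140174659) shares none with *Mad1l1*-201 and overlaps *Mad1l1*-206. It is shown from the GENCODE M21 transcript, 5′ to 3′, because so few reads on it decide the TPM of the gene; capitals mark the bases shared with *Mad1l1*-201.
Mad1l1-204: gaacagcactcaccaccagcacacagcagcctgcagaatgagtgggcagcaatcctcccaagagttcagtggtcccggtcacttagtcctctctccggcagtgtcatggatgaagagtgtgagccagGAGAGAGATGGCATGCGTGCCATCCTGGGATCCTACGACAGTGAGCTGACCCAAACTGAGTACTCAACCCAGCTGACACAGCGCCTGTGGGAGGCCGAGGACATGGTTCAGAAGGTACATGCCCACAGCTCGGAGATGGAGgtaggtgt

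**Figure D2:**
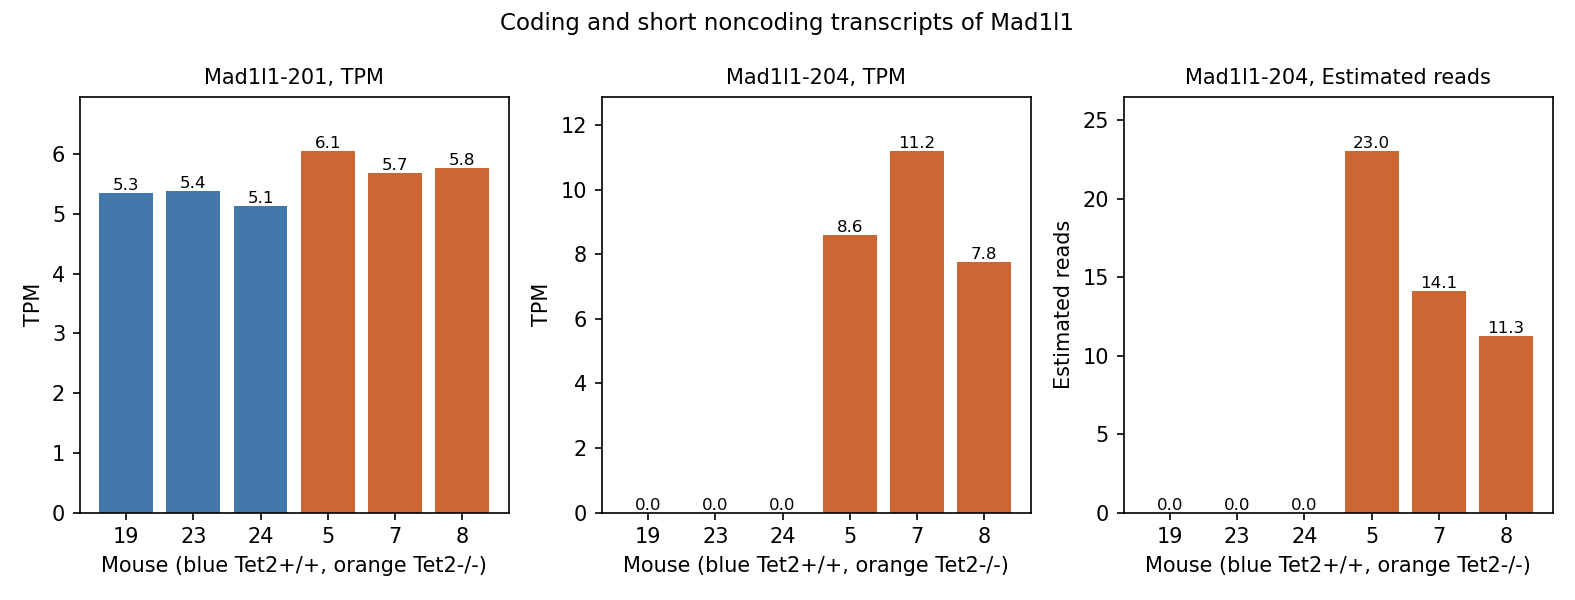
TPM of *Mad1l1*-201 and of *Mad1l1*-204, and the estimated reads on *Mad1l1*-204, in each mouse (bars, 1 library each). *Mad1l1*-201 runs from 5.14 to 6.05 TPM over all 6 mice, and *Mad1l1*-204 is at 0 in the *Tet2*+/+ mice and has 11.3 to 23.04 reads in the *Tet2*-/- mice.

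The same short transcript decided how *Mad1l1* appeared when TPM was carried into gene counts. Length-scaled counts are made from gene TPM, and the methods paired them with DESeq2. Tested in that way here, they gave *Mad1l1* a log2 fold change of 1.49 ± 0.24 SE (Benjamini-Hochberg adjusted p = 3.24e-07) and *Espl1* 0.93 (adjusted p = 0.0284), so 2 of the 10 members passed as higher, beside 0.290% of all genes. With transcripts under 300 bases left out, an alternative chosen after the data were seen, *Mad1l1* stood at 0.30 (DESeq2 adjusted p = 0.860) and *Espl1* at 1.08 (adjusted p = 0.0442). Over all genes, 54 passed as higher in that setting. DESeq2 on the summed reads called 0 of the 10 members, where 59 of all genes passed as higher and 325 as lower. Gene TPM of *Mad1l1* was 6.93, 6.90 and 5.14 in mice 19, 23 and 24 against 16.4, 16.9 and 16.1 in mice 5, 7 and 8, while over transcripts of at least 300 bases the latter were 7.79, 5.68 and 8.29 TPM.

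*Mad2l1* encodes MAD2, the inhibitor of CDC20. It was at 61.0, 49.95 and 52.1 CPM in mice 19, 23 and 24 and at 69.6, 72.5 and 60.6 CPM in mice 5, 7 and 8. Mouse 8 was just below mouse 19, and the other *Tet2*-/- mice were above all *Tet2*+/+ mice. The log2 fold change was 0.31 ± 0.16 SE (95% interval -0.06 to 0.69, edgeR's quasi-likelihood test, Benjamini-Hochberg adjusted p = 0.666). The main coding transcript *Mad2l1*-201 was at 14.3, 13.4 and 12.8 TPM against 18.7, 19.04 and 17.1 TPM, without overlap (limma adjusted p = 0.796).

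Here too a short transcript carried much of the TPM, and in the other direction. *Mad2l1*-204, a processed transcript of 229 bases with an effective length of 14 bases, had 22.6, 20.2 and 20.1 reads in mice 19, 23 and 24 and 38.7, 7.71 and 15.7 reads in mice 5, 7 and 8. Those reads made 40.3 to 73.8% of the TPM of the gene. The TPM of *Mad2l1*-204 was lower in every *Tet2*-/- mouse (42.7, 17.6 and 32.1 against 49.1, 44.4 and 57.5), without passing limma's test (log2 fold change -0.77, adjusted p = 0.796). On length-scaled counts the sign of *Mad2l1* turned, to -0.24 with edgeR's quasi-likelihood test (Benjamini-Hochberg adjusted p = 0.852) and to -0.24 with DESeq2 (adjusted p = 0.934), and without transcripts under 300 bases it was 0.37 with edgeR. Its second exon (chr6:66535958-66536073, plus strand, GRCm38) lies wholly in a coding exon of *Mad2l1*-201, and its first (chr6:66535678-66535790) lies in an intron of *Mad2l1*-201. The transcript is shown from GENCODE M21 because it turns the direction of the gene, with the 116 shared bases in capitals.
Mad2l1-204: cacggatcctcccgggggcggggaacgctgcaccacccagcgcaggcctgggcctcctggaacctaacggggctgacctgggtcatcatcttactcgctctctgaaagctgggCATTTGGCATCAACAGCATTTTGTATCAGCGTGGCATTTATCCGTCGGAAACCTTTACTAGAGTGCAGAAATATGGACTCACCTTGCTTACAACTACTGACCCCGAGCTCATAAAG

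**Figure D3:**
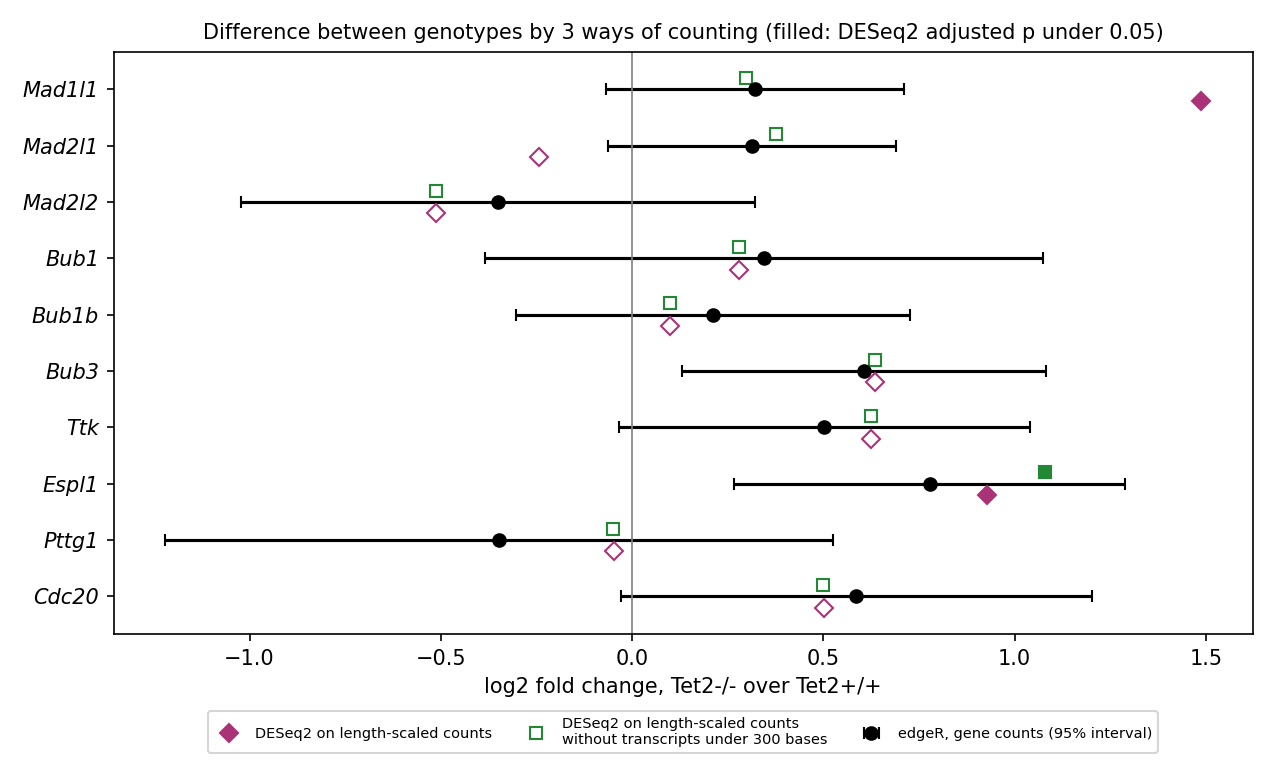
log2 fold change of each gene, *Tet2*-/- over *Tet2*+/+, by edgeR on summed reads with its 95% interval (black), and by DESeq2 on length-scaled counts with all transcripts (diamonds) and without those under 300 bases (squares). Filled symbols have a DESeq2 adjusted p under 0.05; *Mad1l1* moves from 1.49 to 0.30 and *Mad2l1* from -0.24 to 0.38 when the short transcripts are left out, and the other 8 genes move less than these 2.

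*Mad2l2*, whose product serves DNA repair more than the checkpoint, stood with *Pttg1*. It was at 10.4, 15.5 and 14.9 CPM in mice 19, 23 and 24 and at 12.5, 7.72 and 11.8 CPM in mice 5, 7 and 8. Mouse 19 lay among the *Tet2*-/- mice, and mouse 7 was lowest. The log2 fold change was -0.35 ± 0.29 SE (95% interval -1.02 to 0.32, edgeR's quasi-likelihood test, Benjamini-Hochberg adjusted p = 0.797). Leaving out mouse 7 brought it to -0.17, and leaving out mouse 19 to -0.52.

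The members also varied between mice within a genotype. Relative to its own mean over the 6 mice, *Bub3*, *Ttk* and *Cdc20* were lowest in mouse 23 (-0.66, -0.62 and -0.74 on the log2 scale), and *Ttk* and *Cdc20* were highest in mouse 7 (0.48 and 0.59). *Pttg1* and *Mad2l2* were the reverse, at 0.53 and 0.39 in mouse 23 and at -0.75 and -0.62 in mouse 7. Other members had other extremes: *Mad1l1* and *Espl1* were lowest in mouse 24 and highest in mouse 5, and *Bub1* and *Bub1b* were lowest in mouse 5. Mouse 23 had the lowest and mouse 7 the highest sum of mature neutrophil markers. A link between these markers and the members was not tested.

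**Figure D4:**
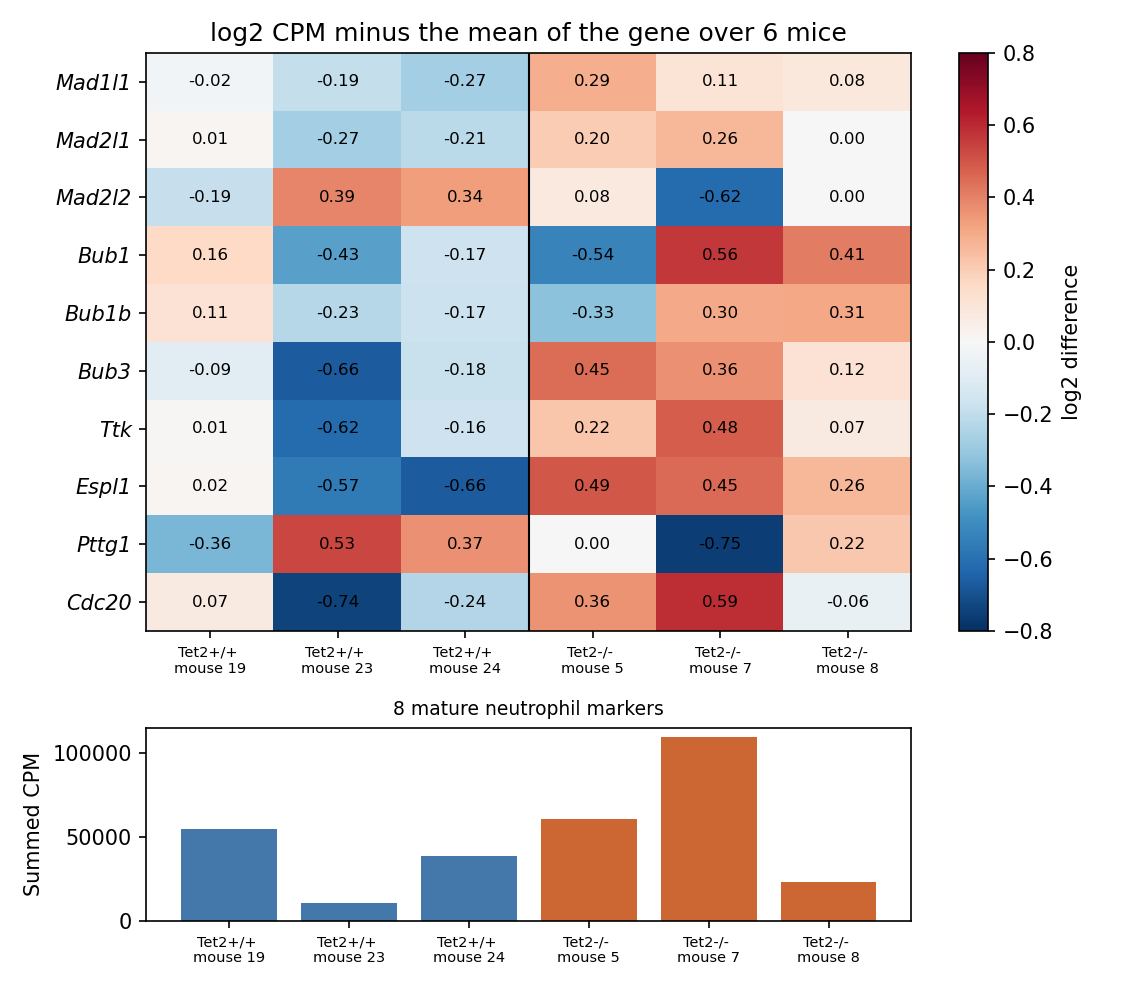
log2 CPM of each gene in each mouse minus the mean of that gene over 6 mice (top, printed in each cell), and the summed CPM of 8 mature neutrophil markers in the same mice (bottom). Mouse 23 has the lowest marker sum and is low in *Bub3*, *Ttk*, *Espl1* and *Cdc20*, and mouse 7 has the highest marker sum and is low in *Mad2l2* and *Pttg1*. *Bub1* and *Bub1b* are lowest in mouse 5, and a link to the markers was not tested.

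The members were also set against general mitotic genes of the same mice. A list of 12 genes of mitotic entry and proliferation, *Top2a* and *Cdk1* among them, had a mean log2 CPM of 6.70, 5.94 and 6.40 in mice 19, 23 and 24 and of 6.85, 7.10 and 6.72 in mice 5, 7 and 8, a difference of 0.54 (exact two-sided permutation p = 0.1, the smallest possible), and 5 of the 12 were higher without overlap, beside 6.41% of all genes. Taken as a difference from that mean in the same mouse, 0 of the 10 members were free of overlap between genotypes, where 0.448% of all genes were higher and 21.5% lower without overlap. Without mouse 19, 4 members were without overlap, all lower (*Mad2l1*, *Mad2l2*, *Ttk* and *Pttg1*), where 48.4% of all genes were lower and 1.18% higher. With any other mouse left out, at most 1 member was higher and at most 1 lower without overlap, where 0.972 to 1.75% of all genes were higher and 23.3 to 37.9% lower. *Mad1l1* differed by -0.22, *Mad2l1* by -0.23, *Bub1* by -0.25 and *Bub1b* by -0.35 (exact permutation p = 0.6, 0.2, 0.8 and 0.3). *Ttk* differed by -0.03, *Cdc20* by 0.06, *Bub3* by 0.08 and *Espl1* by 0.26 on the log2 scale (exact permutation p = 0.6, 0.6, 0.5 and 0.2). *Mad2l2* and *Pttg1* differed by -0.90 each (exact permutation p = 0.3 for both), and mouse 7 was the lowest in both. In all, 7 of the 10 members were lower relative to the mitotic list and 3 higher.

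The genes around the members in the same pathway were mostly higher in *Tet2*-/- too, and 0 of the listed genes passed the adjusted p of edgeR's quasi-likelihood test or of DESeq2 on the same counts. At an unadjusted p under 0.05 in edgeR, higher genes were 2 in the list of recruiters and silencers, 4 in the outer kinetochore, 3 in the chromosomal passenger list and 3 in the mitotic list, with 0 among the anaphase-promoting complex and cohesin, where 3.0% of all genes were higher at that threshold. Among 11 genes that recruit or silence the checkpoint, 11 were higher (median log2 fold change 0.28, but 0.12 without mouse 23 and 0.09 with scaling by library size alone), and *Spdl1*, *Trip13* and *Mad2l1bp*, the 3 without overlap (6.41% of all genes in that direction), are named here because of their values. *Zwilch*, a subunit of the complex that brings MAD1 to kinetochores, was at 46.0, 30.2 and 32.7 CPM in *Tet2*+/+ and 45.0, 42.2 and 40.5 CPM in *Tet2*-/- mice. *Tpr*, the nuclear pore protein that binds MAD1, differed least, at 270 CPM in *Tet2*+/+ (± 6.68 SD, n = 3) and 278 CPM in *Tet2*-/- (± 10.7 SD, n = 3). Of the 10 genes of the outer kinetochore, to which microtubules attach, 9 were higher (median 0.45, but 0.28 with scaling by library size alone), 2 of them without overlap, beside 6.41% of all genes. These were *Pmf1* (52.9, 45.0 and 47.8 against 70.8, 59.6 and 67.6 CPM) and *Mis12* (43.3, 38.6 and 39.6 against 58.3, 53.2 and 54.7 CPM), the latter named because of its values. *Spc24* (34.5, 24.5 and 25.2 against 48.9, 41.0 and 34.3 CPM) overlapped at 1 mouse, and *Zwint*, picked out afterwards as the exception, had a log2 fold change of -0.21.

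All 7 genes of the chromosomal passenger complex and of cohesion protection were higher, with a median of 0.54 and 4 without overlap, beside 6.41% of all genes and 9.81% of those averaging 5 CPM or more. *Aurkb*, the kinase that corrects wrong attachments, was at 70.2, 43.3 and 55.6 CPM in *Tet2*+/+ and at 94.1, 92.8 and 86.1 CPM in *Tet2*-/- mice (log2 fold change 0.69 ± 0.20 SE, edgeR's quasi-likelihood test, Benjamini-Hochberg adjusted p = 0.499). Its partner *Birc5* (survivin) had a log2 fold change of 0.65 ± 0.21 SE (adjusted p = 0.527 by edgeR). *Cdca8* and *Sgo1*, the other 2 without overlap, are likewise named because of their values.

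The machinery downstream of CDC20 had smaller median differences. Of 18 genes of the anaphase-promoting complex and its regulators, 13 were higher and 5 lower, with a median of 0.12, and 1 was higher without overlap, *Fzr1*, named because of its values. *Anapc5*, a core subunit, was at 323 ± 13.4 CPM (SD, n = 3) in *Tet2*+/+ and 305 ± 53.3 CPM (SD, n = 3) in *Tet2*-/- mice, and *Ube2s*, its chain-extending partner, was at 106, 85.2 and 76.8 CPM against 162, 177 and 85.7 CPM, high in mice 5 and 7. Of 14 genes of cohesin, the substrate of separase, 12 were higher (median 0.13) and 0 were free of overlap. The 1 of 18 and the 0 of 14 without overlap stand beside 6.41% of all genes in that direction. *Rad21*, the subunit that separase cuts, was at 468, 272 and 290 CPM against 473, 571 and 431 CPM, with mouse 19 among the *Tet2*-/- mice, and *Stag2* was at 269 ± 26.5 CPM (SD, n = 3) in *Tet2*+/+ and 283 ± 52.0 CPM (SD, n = 3) in *Tet2*-/-. With scaling by library size alone, which moved the median of all genes by -0.17, the medians of these lists became -0.05 and -0.05.

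The partners of MAD2L2 in DNA repair were mostly lower. Of 6 measured genes 5 were lower, 1 of them at an unadjusted p under 0.05 (5.12% of all genes in that direction), and the median of the list was -0.19 on the log2 scale (-0.10 without mouse 24 and -0.37 with scaling by library size alone). *Rev1*, a translesion polymerase scaffold, was at 65.2 ± 19.9 CPM (SD, n = 3) in *Tet2*+/+ and 74.9 ± 15.4 CPM (SD, n = 3) in *Tet2*-/-, and *Rif1* was at 73.3 ± 7.92 and 71.5 ± 14.2 CPM (SD, n = 3). *Trp53bp1*, picked out after its values were seen as the gene without overlap in this list, was at 38.6, 46.8 and 43.0 CPM against 15.4, 30.8 and 29.9 CPM (log2 fold change -0.76, edgeR's quasi-likelihood test, Benjamini-Hochberg adjusted p = 0.598), where 7.94% of all genes were lower without overlap.

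**Figure D5:**
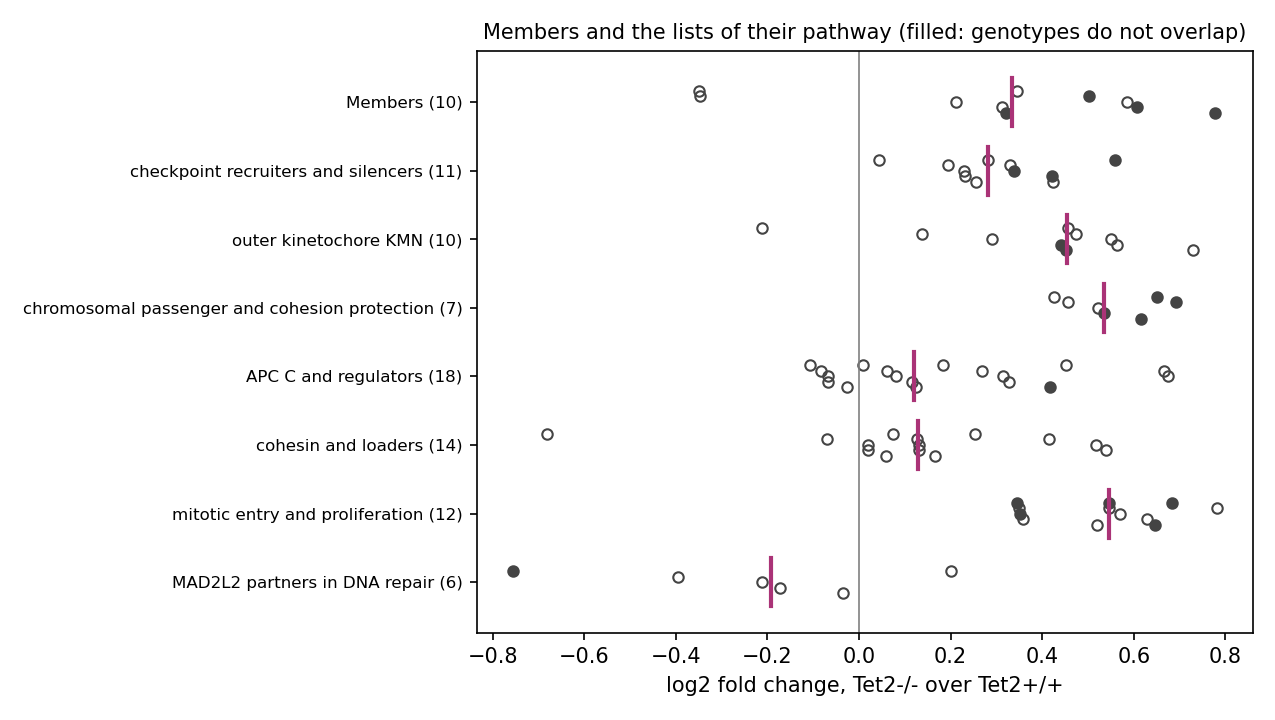
log2 fold change of each member and of each gene of 7 lists of the same pathway, *Tet2*-/- over *Tet2*+/+ (points, filled where the genotypes do not overlap), with the median of each list as a vertical bar and the number of genes in brackets. The medians run from -0.19 for the DNA repair partners of MAD2L2 to 0.55 for the mitotic genes, with 0.33 for the members.

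Among 9166 genes averaging 10 CPM or more, those whose centred log2 CPM over the 6 mice was nearest to that of *Mad1l1* were *Zcrb1* (root mean square difference 0.033), *Chmp2a*, *Trappc2l*, *Ap2m1* and *Sart1* (0.048). Nearest to the mean of the other 9 members were *Pank4* (0.032), *Derl2*, *Rnaset2b*, *Smu1* and *Zgrf1* (0.058). No gene of the pathway lists was among these 10.

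Promoters were compared because cell cycle genes often carry a TTTGAA-type element (the cell cycle homology region), CCAAT boxes and E2F sites near the start. The RefSeq windows of GRCm38.p6, 250 bases before to 50 after a start, gave 13 promoters for the 10 genes. On either strand TTTGAA was in 17.9% of all 32851 windows, CCAAT in 37.4% and TTTNNCGC in 5.17%, and among the 13 windows in 6, 8 and 3. By gene these are 5, 7 and 2, since the windows of *Bub3* overlap and share their matches. Matches to different motifs can share bases, and each motif was counted once per window. *Espl1*, *Bub3*, *Cdc20* and *Ttk*, the members with the largest log2 fold changes, each held TTTGAA and CCAAT, as did *Bub1b*, while no window of *Mad1l1*, *Mad2l1* or *Pttg1* held any of these letters. The windows follow RefSeq starts. That of *Mad2l1* (chr6:66534971-66535270) ends before *Mad2l1*-202, the first of its quantified transcripts, begins at 66535390. That of *Pttg1* (chr11:43425932-43426231) reaches only just past the start of *Pttg1*-205 (43426217). The bases just before these starts were therefore mostly not searched. Over all tested genes with a window, the median log2 fold change was 0.04 for the 1005 genes with both TTTGAA and CCAAT and 0.03 for the 6363 with neither. The windows of the 4 genes are shown 5′ to 3′ on the strand of the gene, with matches on either strand in capitals: Espl1 at chr15:102296043-102296342 (plus), with TTTGAA at -27, CCAAT at -44 and TTTNNCGC at -54 and -8 from the start, Bub3 at chr7:131560120-131560419 (plus), Cdc20 at chr4:118437294-118437593 (minus) and Ttk at chr9:83834439-83834738 (plus).
Espl1: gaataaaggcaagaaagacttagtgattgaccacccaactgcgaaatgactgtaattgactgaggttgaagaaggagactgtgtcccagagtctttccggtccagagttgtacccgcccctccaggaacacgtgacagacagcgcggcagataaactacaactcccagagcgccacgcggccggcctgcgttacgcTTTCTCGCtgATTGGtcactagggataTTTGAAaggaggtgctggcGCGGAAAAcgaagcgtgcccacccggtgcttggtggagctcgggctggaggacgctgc
Bub3: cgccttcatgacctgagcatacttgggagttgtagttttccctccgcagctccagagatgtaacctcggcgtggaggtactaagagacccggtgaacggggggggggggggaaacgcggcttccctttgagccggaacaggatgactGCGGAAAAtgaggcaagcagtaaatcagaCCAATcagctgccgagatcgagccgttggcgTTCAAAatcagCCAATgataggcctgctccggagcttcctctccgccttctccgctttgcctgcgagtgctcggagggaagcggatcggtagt
Cdc20: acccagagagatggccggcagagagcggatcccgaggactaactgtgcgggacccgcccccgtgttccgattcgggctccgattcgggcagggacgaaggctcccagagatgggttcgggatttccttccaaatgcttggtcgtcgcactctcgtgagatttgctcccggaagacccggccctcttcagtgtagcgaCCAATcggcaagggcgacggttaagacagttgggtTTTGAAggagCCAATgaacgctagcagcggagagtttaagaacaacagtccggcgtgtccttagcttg
Ttk: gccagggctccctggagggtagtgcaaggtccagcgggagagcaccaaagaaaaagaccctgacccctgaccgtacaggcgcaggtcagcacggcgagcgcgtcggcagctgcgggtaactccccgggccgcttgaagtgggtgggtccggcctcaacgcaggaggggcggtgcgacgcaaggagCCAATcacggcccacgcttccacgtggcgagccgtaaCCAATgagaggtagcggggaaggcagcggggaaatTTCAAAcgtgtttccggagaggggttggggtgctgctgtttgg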

How the data were processed

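RNA-seq was done on sorted blasts of 6 mice. Per the labels and methods, RNA went into TruSeq libraries sequenced on a NextSeq, and the authors quantified transcripts with Salmon (version 0.12.0 in the submitters' processing notes) on GRCm38. The deposited estimated count values are reads per transcript, unnormalized, and can be fractional. The deposited TPM values are those reads per effective length, scaled to 1 total per library. The range of depth over the libraries is given with the results.

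Reads were summed per gene with GENCODE M21 (the release equal to Ensembl 94) and rounded. The 112 transcripts without a gene (0.0307 to 0.0416% of reads) were left out. Genes with 10 or more counts in total, after division by relative library size, were tested with edgeR 4.0.16 (TMM, quasi-likelihood test, Benjamini-Hochberg over 22170 genes), with no covariate. The biological coefficient of variation was 43.6%. Transcripts were tested with limma 3.58.1 on log2(TPM + 1), and DESeq2 1.42.0 was an alternative. Scripts were tested on simulated data. Groups came from the sample titles, and each mouse is 1 biological replicate. The members and lists were chosen with earlier results of these data known. Named were all members, the 2 genes of each list with the highest mean TPM, *Mad1l1* transcripts with a mean of at least 0.5 TPM and the 5 nearest profiles. Transcripts of other members were picked after their values were seen. *Shld3* had no match. Copies were searched with BLAST+ 2.17.0. A search of protein motifs was not run. *Haspin* stands for *Gsg2*.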

Additional observations from a re-analysis of the deposited data

How the results depend on the processing

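The counts of genes passing depended strongly on the tool and the gene counts, and those of the members less. Genes lower were 10 with edgeR on summed reads, 325 with DESeq2 on the same counts, 325 with DESeq2 on length-scaled counts, 304 with the latter without transcripts under 300 bases, 5 and 5 with edgeR on those length-scaled counts, 62 with no filter on low counts, and 0 to 7 with 1 mouse left out (0 without mouse 5, 7 or 8, 2 without mouse 23 and 1 without mouse 24). Genes higher were 0 with edgeR, and 59, 64 and 54 in the same DESeq2 settings, 1 with RLE size factors, 1 with filterByExpr, 4 with no filter and 0 to 0 with 1 mouse left out. Members passing were 0, against 2 with DESeq2 on length-scaled counts (beside 0.290% of all genes higher). With DESeq2 without the short transcripts 1 passed, beside 54 genes higher in that setting, and 0 to 0 passed with 1 mouse left out. Members without overlap between genotypes were 4, 3 with scaling by library size alone (2.69% of all genes higher), and 4 to 8 with 1 mouse left out (8.99 to 15.5% of all genes higher), 8 of them without mouse 19 (6 higher and 2 lower, beside 12.7% and 15.2% of all genes). Relative to the mitotic list that count was 0, against 3 on length-scaled counts (2 higher and 1 lower, beside 0.481% and 21.5% of all genes) and 0 to 4 with 1 mouse left out, 4 of them without mouse 19 (all lower, beside 48.4% of all genes). *Mad1l1* transcripts passing were 1, against 0 with edgeR on transcript reads and 0 to 0 with 1 mouse left out, where fewer samples were tested. For the other differences the cause was not tested. *Mad2l1* turned from 0.31 to -0.243 (DESeq2) and -0.241 (edgeR) on length-scaled counts, and *Mad1l1*-203 from 0.16 to -0.22 without mouse 8 and -0.29 without mouse 24 (-0.29 to 0.69 over all mice left out). Scaling by library size alone moved the median of all genes by -0.17 and left *Bub1b* at 0.04, the member nearest to 0. With 1 mouse left out, list medians were 0.34 to 0.74 for the mitotic genes, 0.08 to 0.15 for the anaphase-promoting complex and 0.07 to 0.17 for cohesin, with 0.34, 0.09 and 0.07 without mouse 23. The other 9 members kept their direction in every setting run, and no list gene passed by DESeq2 on the same counts. *Pttg1* rests on 71 to 244 reads per library and *Mad1l1*-204 on up to 23.04. No paired analysis was possible because the mice of the genotypes share no replicate number.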
